A study of Mus musculus with 8 samples.

Results

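The genes of sterol and fatty acid synthesis were examined in tumor-associated macrophages (TAMs) as a list of 36 genes, matched by name in the deposited tables. The list holds 18 enzymes of cholesterol synthesis, 6 genes of sterol regulation and transport and 12 enzymes of fatty acid synthesis, elongation and desaturation. All 36 genes were among the 26939 genes of the joined tables and passed the filter on low counts in every comparison. TAMs were taken from EO771 mammary tumors at day 21 by cell sorting (CD45+, CD11b+ and F4/80+ viable cells without Gr-1), and their poly-A RNA was sequenced in bulk. *Unc93b1* 3d/3d mice carry a mutated UNC93B1, the protein that brings nucleic acid-sensing TLRs to endosomes, in every cell type, and C57BL/6J is the WT strain of the study. The 8 libraries form 4 groups of 2, namely WT TAMs with and without αMARCO and *Unc93b1* 3d/3d TAMs with and without αMARCO. αMARCO is the rat IgG1 antibody clone ED31 against the scavenger receptor MARCO, injected at 100 µg on days 3, 6, 9 and 12. The control mice are called untreated or PBS in the labels, whereas an IgG1 isotype antibody is named in the protocol, so which injection they received is not settled. One *Unc93b1* 3d/3d control library has a genotype entry that reads 3d/4d although its title reads 3d/3d. The tumor-bearing mice of this model were young adult females, and control libraries were pools of TAMs from several mice.

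Cholesterol is built from acetyl-CoA through mevalonate, isoprenoid diphosphates and squalene, which is then closed into a ring and trimmed to cholesterol. The transcription factors SREBP1, encoded by *Srebf1*, and SREBP2, encoded by *Srebf2*, switch on these enzymes. When sterols are abundant, INSIG proteins hold SREBP and its escort SCAP in the endoplasmic reticulum, and *Insig1* is itself an SREBP target. In macrophages the pathway is known to respond to Toll-like receptor and interferon signals, and its products are precursors of membranes and of lipid mediators.

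Library totals ranged from 15182618 to 26411936 counts, and a count floor of 3 corresponds to 0.114 to 0.198 CPM (counts scaled to library size with TMM factors), covering counting error only. The smallest count of any of the 36 genes in any library was 24, for *Fdps*. One library stands apart. In *Unc93b1* 3d/3d αMARCO replicate 2 the 50 highest genes took 18.2% of the counts, against at most 15.1% in the others. Its log2 CPM difference from replicate 1 fell with gene length (Spearman rho −0.52 across 12741 coding genes, which are not independent replicates), with an SD of 1.01 over genes against 0.44 to 0.58 for the other replicate pairs. *Unc93b1* itself was at 707 to 965 CPM in the WT libraries and 539 to 660 CPM in the *Unc93b1* 3d/3d libraries, but the 3d allele is a point mutation, so the transcript level does not test the genotype. Macrophage markers were abundant in every library, summing to 8150 to 11695 CPM over 8 genes. Of these 8, 3 were lower and 1 was higher after αMARCO in WT. In WT control, 1 was higher and 1 was lower than in *Unc93b1* 3d/3d control. Of 6 adipocyte markers, a cell type rich in these enzymes, 4 were in the tables, and each was under 1 CPM in all 8 libraries.

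Markers of other cell types differed between the groups. The 7 tumor or mammary epithelium genes summed to 52.7 to 106 CPM in WT control and 30.9 to 32.0 CPM after αMARCO in WT. Of the 3 tested, 2 were lower after αMARCO. In *Unc93b1* 3d/3d they summed to 49.2 to 59.1 CPM without αMARCO and 69.1 to 70.5 CPM with it. These sums were mostly *Krt8* and *Cdh1*, and each other gene was at 1.83 CPM or less in every library. *Krt8* was at 42.3 and 33.9 CPM in WT control and 23.3 and 22.4 CPM in WT αMARCO. *Cdh1* differed between the WT control libraries, at 61.6 and 14.7 CPM, and was at 7.33 and 9.49 CPM in WT αMARCO. The 6 neutrophil genes summed to 315 to 336 CPM in WT control and 377 to 380 CPM in WT αMARCO. Of the 4 tested there, 0 were higher and 1 was lower. The neutrophil sum followed *Csf3r*, at 262 and 279 CPM in WT control and 357 and 354 CPM in WT αMARCO. The others, *S100a8*, *S100a9*, *Mmp8*, *Ly6g* and *Retnlg*, were lower in both WT αMARCO libraries than in both WT control libraries. Summed over 8 T cell genes, the level was 88.4 to 102 CPM in WT control and 3.93 to 15.7 CPM in the other 6 libraries, with all 8 genes higher in WT control in both comparisons that involve it. The 6 mature dendritic cell genes summed to 438 to 862 CPM in WT control and 64.8 to 115 CPM elsewhere, with 3 of the 5 tested lower in WT αMARCO and 1 of 5 higher in WT control than in *Unc93b1* 3d/3d control. The 12 cell cycle genes summed to 829 to 933 CPM in WT control and 607 to 608 CPM after αMARCO in WT, while the *Unc93b1* 3d/3d libraries had 678 to 748 CPM without αMARCO and 522 to 526 CPM with it. Of these 12, 10 were lower in WT αMARCO than in WT control, and 2 were higher in WT control than in *Unc93b1* 3d/3d control. Among all genes tested, 11.8% were likewise lower in WT αMARCO, and 6.58% were higher in WT control than in *Unc93b1* 3d/3d control. In lists this small, 1 or 2 such genes say little. The 6 fibroblast or stroma genes took another course, with 84.9 to 107 CPM in WT control, 24.4 to 38.1 CPM after αMARCO in WT, 151 to 175 CPM in *Unc93b1* 3d/3d control and 77.3 to 162 CPM after αMARCO in that genotype. Of these 6, 3 were lower after αMARCO in WT and 2 were lower in WT control than in *Unc93b1* 3d/3d control, against 6.40% of all genes in the latter. That second direction is also the one of *Scd1*, *Elovl6* and *Fads1*. After αMARCO in WT these 3 did not pass the test, at log2 fold changes of 0.42, −0.17 and −0.14. The 5 endothelial genes summed to 292 to 296 CPM in WT control and 97.5 to 199 CPM elsewhere. That sum followed *Pecam1*, at 203 and 199 CPM in WT control and 24.1 to 107 CPM elsewhere. *Kdr*, at 72.0 and 82.6 CPM in WT control and 56.4 to 81.4 CPM elsewhere, overlapped, as did *Vwf*. Conventional dendritic cell genes summed to 68.7 to 132 CPM in WT control and 16.6 to 44.1 CPM elsewhere, NK cell genes to 27.2 to 32.7 and 2.86 to 11.9 CPM, and B cell genes to 39.0 to 43.4 and 4.57 to 20.2 CPM. The B cell sum followed *Cd79b*, at 36.6 and 41.2 CPM in WT control and 2.26 to 17.2 CPM elsewhere. *Ms4a1* and *Pax5* overlapped between WT control and the other libraries. The part of these cells, and of cell division, in the results below was not tested. In bulk samples a change in the share of a cell type cannot be told apart from a change of RNA per cell.

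Per kb of gene length, the most abundant of the 36 transcripts over all 8 libraries was *Acly*, ATP citrate lyase, which supplies cytosolic acetyl-CoA, at a mean of 30.3 CPM per kb. *Elovl1*, an elongase of very long chain fatty acids, followed at 30.0 and *Scd2*, a stearoyl-CoA desaturase, at 25.5 CPM per kb. *Mvd*, *Insig1*, *Srebf2* and *Srebf1* lay between 20.8 and 22.0 CPM per kb. The lowest were *Acss2*, which makes acetyl-CoA from acetate, at 0.501, and *Fdps*, farnesyl diphosphate synthase, at 0.602 CPM per kb. *Scd1*, the paralog of *Scd2*, was at 3.54 CPM per kb. The authors' counting can split or merge reads for some genes. *Acat2* matches its paralog *Acat3* over 1477 bases at 95% identity or more, *Fdft1* shares 18.3% of its exon bases with *Ctsb*, an abundant macrophage gene, and *Tm7sf2* shares 12.1% with *Vps51*. *Idi1* shares 9.22% of its exon bases with *Gm48574* and has 2 processed pseudogenes in the annotation. *Fdps*, one of the lowest above, shares 26.7% of its exon bases with *Gm43738*, the largest share of the 36. *Scap* shares 13.2%, *Hmgcs1* 12.1% and *Acss2* 9.12% with other genes. Strand use in the counting is not given in the sources used here, so these genes are uncertain.

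**Figure D1:**
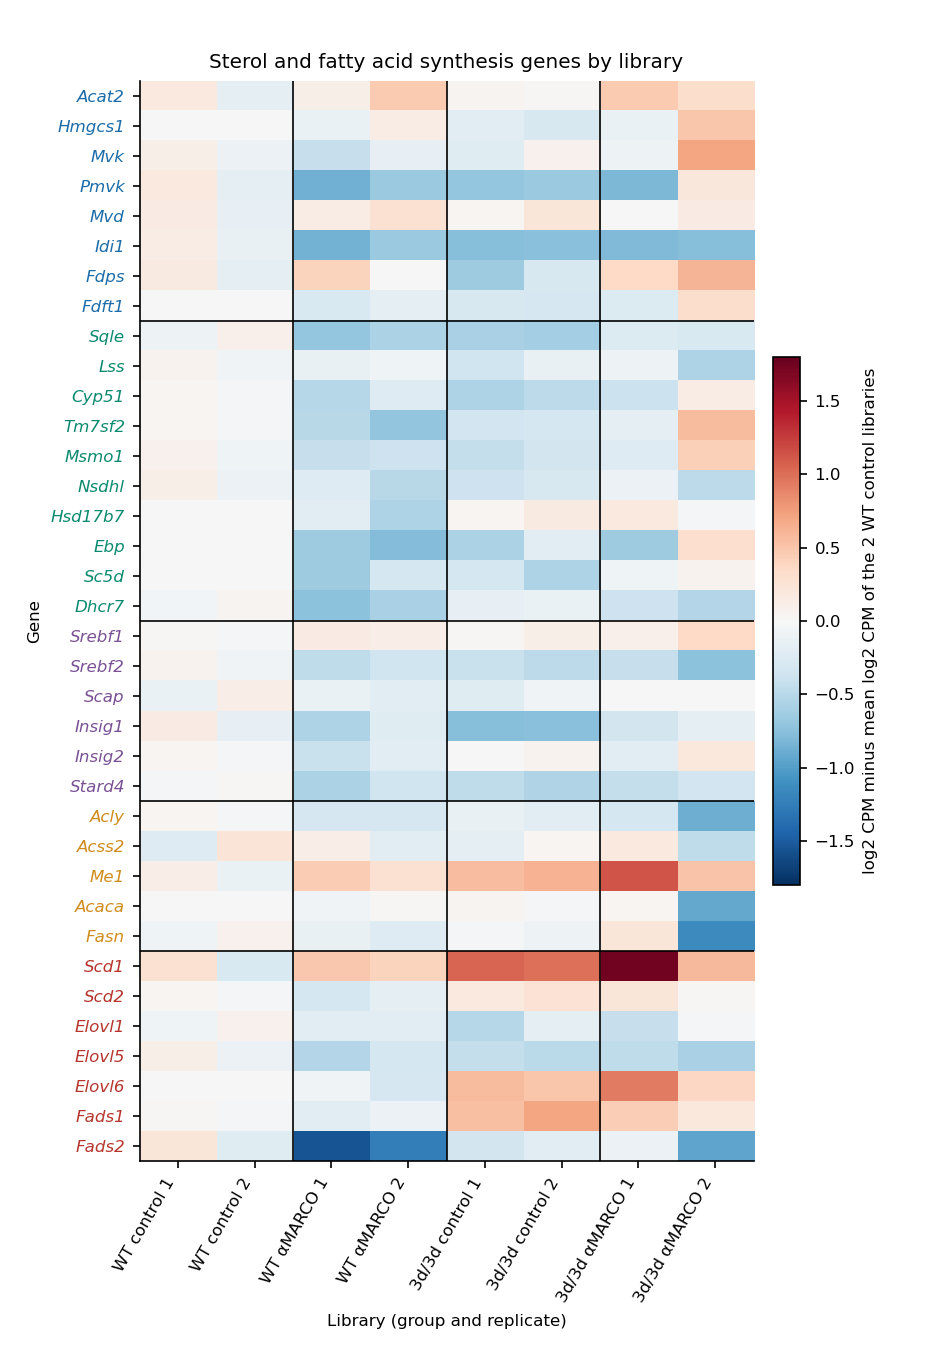
Heat map of the 36 genes (rows, ordered by role in the pathway, with horizontal lines between roles) in the 8 libraries (columns). Colour is log2 CPM minus the mean log2 CPM of the 2 WT control libraries. Most sterol genes are below WT control in both WT αMARCO and both *Unc93b1* 3d/3d control libraries, *Scd1*, *Elovl6* and *Fads1* are above it in all 4 *Unc93b1* 3d/3d libraries, and *Unc93b1* 3d/3d αMARCO replicate 2 departs in both directions.

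The first comparison asked how αMARCO treatment changed TAMs of WT mice. Of the 18 enzymes of cholesterol synthesis 6 fell by the threshold used throughout, which asks for an edgeR adjusted *P* no higher than 0.05 and a log2 fold change of 0.5 or more in either direction, and none rose. Of the 12 fatty acid enzymes 1, *Fads2*, fell. Together 7 of the 36 genes (19.4%) were called lower, against 11.8% of all 15630 genes tested, and 0 were called higher, against 8.91% of all genes. Without the fold threshold 14 of 36 were lower, against 19.0% of all genes. The median log2 fold change of the 36 genes was −0.28, beside −0.01 over all genes. In 27 of the 36 genes both αMARCO libraries lay below both control libraries, a pattern that 36.8% of all genes showed.

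In the early steps, *Pmvk*, phosphomevalonate kinase, stood at 51.9 and 41.0 CPM in WT control and at 25.2 and 29.0 CPM in WT αMARCO. It was 1.70-fold lower (log2 fold change −0.77, SE 0.13, adjusted *P* = 0.00221), with no overlap between the groups. *Idi1*, the isomerase of isopentenyl diphosphate, went from 20.7 and 17.2 CPM to 10.4 and 11.9 CPM and was 1.68-fold lower (log2 fold change −0.75, SE 0.15, adjusted *P* = 0.00471). The 8 genes from acetyl-CoA to squalene did not move as a block. The other 6 did not pass the test, with log2 fold changes from −0.26 to 0.30, and *Hmgcs1*, HMG-CoA synthase at the head of the pathway, was at 52.4 and 52.7 CPM in WT control and 48.2 and 57.9 CPM in WT αMARCO (log2 fold change 0.02, SE 0.10, adjusted *P* = 0.875).

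In the late steps from squalene to cholesterol, all 10 enzymes had both αMARCO libraries below both controls, against 36.8% of all genes. Their log2 fold changes ran from −0.70 to −0.10 with a median of −0.43. *Lss*, *Nsdhl* and *Hsd17b7* did not pass the adjusted *P*. Of the 10, 4 were called. *Sqle*, squalene epoxidase, a rate-limiting step, fell from 35.5 and 40.2 CPM to 23.3 and 25.4 CPM (log2 fold change −0.63, SE 0.11, adjusted *P* = 0.00211). *Ebp*, a sterol isomerase, fell from 47.7 and 46.8 CPM to 30.5 and 27.4 CPM (log2 fold change −0.70, SE 0.10, adjusted *P* = 0.000774). *Dhcr7*, which catalyses a last reduction to cholesterol, fell from 22.9 and 24.7 CPM to 14.3 and 15.9 CPM (log2 fold change −0.65, SE 0.13, adjusted *P* = 0.00368). *Tm7sf2*, a sterol reductase, fell from 11.5 and 10.9 CPM to 7.96 and 6.87 CPM (log2 fold change −0.59, SE 0.18, adjusted *P* = 0.0269). These 4 enzymes were thus 1.51- to 1.63-fold lower, and *Cyp51*, *Msmo1* and *Sc5d* passed the adjusted *P* but not the fold threshold, at −0.35, −0.39 and −0.46. Summed over the 18 enzymes of the branch, the level was 499.9 and 467.4 CPM in WT control and 363.3 and 395.8 CPM in WT αMARCO.

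None of the 6 genes of regulation and sterol transport was called. *Srebf2* was at 206 and 188 CPM in WT control and 144 and 153 CPM in WT αMARCO, and passed the adjusted *P* without reaching the fold threshold (log2 fold change −0.40, SE 0.08, adjusted *P* = 0.00508). *Srebf1*, which drives mainly fatty acid enzymes, was at 110 and 107 CPM in WT control and 121 and 118 CPM in WT αMARCO (log2 fold change 0.14, SE 0.07, adjusted *P* = 0.160). Neither INSIG gene passed the test. *Insig1* was at 93.7 and 76.6 CPM in WT control against 57.6 and 73.1 CPM in WT αMARCO (log2 fold change −0.37, SE 0.14, adjusted *P* = 0.0723). *Insig2*, which is not under the same sterol feedback, was at 27.3 and 26.3 CPM against 20.4 and 23.2 CPM (log2 fold change −0.29, SE 0.11, adjusted *P* = 0.0730). *Scap* was at 42.1 and 49.6 CPM against 42.0 and 40.1 CPM (log2 fold change −0.15, SE 0.10, adjusted *P* = 0.277). *Stard4*, a carrier of sterol between membranes, passed the adjusted *P* at a log2 fold change of −0.45 (SE 0.11, adjusted *P* = 0.00911).

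Among the fatty acid enzymes, *Fads2*, the desaturase that opens the route to long polyunsaturated fatty acids, had the largest change of the 36 genes. It was at 5.32 and 3.94 CPM in WT control and at 1.55 and 1.93 CPM in WT αMARCO, 2.63-fold lower (log2 fold change −1.39, SE 0.30, adjusted *P* = 0.00663). *Acly* and *Elovl5* passed the adjusted *P* without the fold, at −0.30 and −0.41. The core synthesis enzymes *Acaca*, acetyl-CoA carboxylase, and *Fasn*, fatty acid synthase, had log2 fold changes of −0.01 (adjusted *P* = 0.945) and −0.18 (adjusted *P* = 0.141). *Scd1* had a log2 fold change of 0.42 (SE 0.19, adjusted *P* = 0.115).

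The difference between WT αMARCO and WT control rose with gene length (Spearman rho 0.30 across 12741 coding genes and 0.16 across the 36), and a gene length offset left the same 7 genes called. Fitting all 8 libraries in 1 model left 0 of the 36 genes called and 164 of all genes, whereas the same model without *Unc93b1* 3d/3d αMARCO replicate 2 called the same 7. Without WT αMARCO replicate 1 only *Pmvk*, *Sqle* and *Ebp* were called, and without replicate 2 the count was 11.

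**Figure D2:**
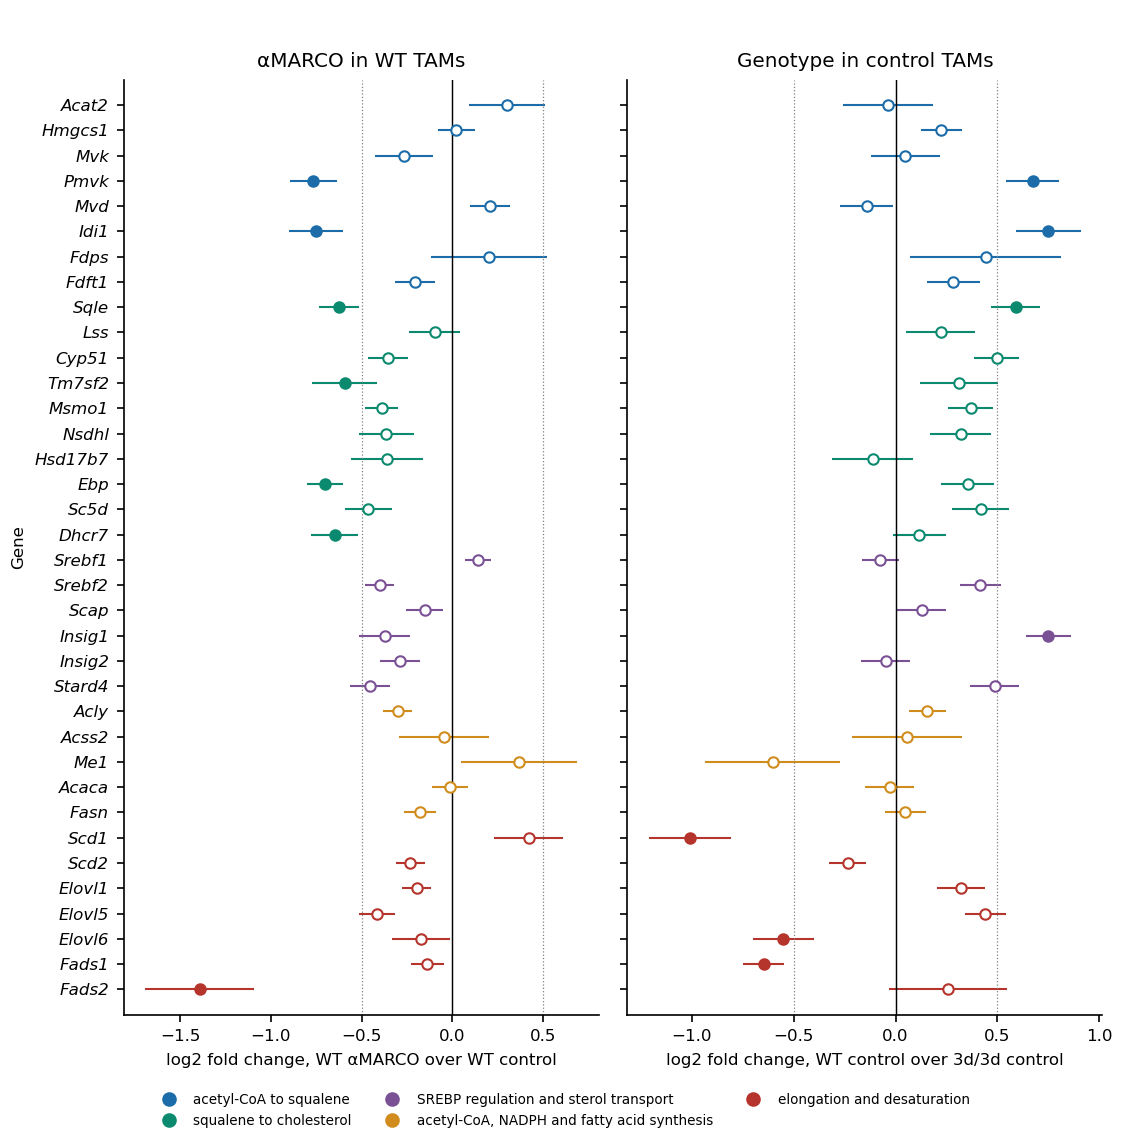
log2 fold change of each of the 36 genes (points, with bars of 1 SE) after αMARCO in WT TAMs (left, WT αMARCO over WT control) and between genotypes in control TAMs (right, WT over *Unc93b1* 3d/3d), coloured by role. Filled points passed the adjusted *P* and the fold threshold (dotted lines at 0.5 and −0.5): 7 points on the left, all below 0, and 7 on the right, 4 above and 3 below 0. Both panels share the WT control libraries.

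Because several sterol enzymes fell in the same comparison, promoter windows of the 36 genes were read from RefSeq (GRCm38.p6), which runs 250 bases before to 50 bases after each start. Of the 36 genes 29 had a window, with 39 windows in all, and a gene was counted if any of its windows matched. The comparison with all genes was not limited to those expressed in these TAMs. The CCAAT box, the site of NF-Y, which acts beside SREBP, was searched as CCAAT on both strands and was in the windows of 24 of the 29 genes (82.8%), against 41.1% of all 27025 genes. The Sp1 motif GGGCGG was also in 24 of 29, against 38.2% of all genes, and the E-box CACGTG in 6 of 29 (20.7%), against 8.09%. A sterol regulatory element spelled TCACNCCAC was in 1 of 29 (3.45%), *Hmgcs1*, against 1.44% of all genes. By window, CCAAT was in 25 of 39, against 37.4% of all windows, and GGGCGG in 29 of 39, against 35.7%. No motif holds another within it. A match is only a run of letters, and its absence from these windows says nothing of the factor. CCAAT was in 14 of the 15 matched sterol enzymes and 6 of the 9 matched fatty acid enzymes. Of the 8 genes with a window that were called in any comparison, 6 held CCAAT and 6 held GGGCGG. The E-box was in 2 of these 8 and TCACNCCAC in 0. CCAAT and GGGCGG were thus no more frequent in the called genes than in all 29. The 250 bases before the start are shown for the 3 called genes with the smallest adjusted *P* in each of the WT αMARCO and control genotype comparisons whose window nearest the annotated gene start held CCAAT, 4 genes in all. Capitals mark CCAAT or its reverse complement ATTGG, and each sequence reads 5′ to 3′ along the strand of its gene.
Ebp (chrX:8193513-8193762, minus strand): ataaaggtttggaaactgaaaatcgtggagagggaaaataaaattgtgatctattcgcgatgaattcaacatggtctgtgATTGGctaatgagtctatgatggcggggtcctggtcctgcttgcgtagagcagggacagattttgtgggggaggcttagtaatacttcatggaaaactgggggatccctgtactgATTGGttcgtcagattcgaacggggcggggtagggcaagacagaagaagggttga
Pmvk (chr3:89454291-89454540, plus strand): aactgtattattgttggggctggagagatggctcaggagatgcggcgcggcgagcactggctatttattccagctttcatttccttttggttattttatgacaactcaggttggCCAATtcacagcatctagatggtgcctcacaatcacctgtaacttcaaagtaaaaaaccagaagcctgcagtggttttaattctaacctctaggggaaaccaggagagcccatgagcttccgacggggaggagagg
Idi1 (chr13:8885356-8885605, plus strand): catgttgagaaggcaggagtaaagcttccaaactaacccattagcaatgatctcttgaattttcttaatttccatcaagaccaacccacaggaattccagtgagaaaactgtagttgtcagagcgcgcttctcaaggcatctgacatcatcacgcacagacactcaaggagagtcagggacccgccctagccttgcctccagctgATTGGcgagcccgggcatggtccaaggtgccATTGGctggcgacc
Insig1 (chr5:28071162-28071411, plus strand): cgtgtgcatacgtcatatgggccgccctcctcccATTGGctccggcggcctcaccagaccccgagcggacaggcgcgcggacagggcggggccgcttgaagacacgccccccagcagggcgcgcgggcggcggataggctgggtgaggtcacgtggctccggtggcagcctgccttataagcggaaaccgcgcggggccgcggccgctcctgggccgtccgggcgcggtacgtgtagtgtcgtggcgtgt

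In *Ebp* and *Idi1* the motif occurs in 2 places, and in *Pmvk* and *Insig1* in 1. The *Insig1* window also holds 3 matches to GGGCGG, and the *Pmvk* window 0. The stretch around the only sterol regulatory element of this spelling is shown with that element in capitals, for contrast, since *Hmgcs1* was not called after αMARCO in WT TAMs.
Hmgcs1 (chr13:119690174-119690262, plus strand): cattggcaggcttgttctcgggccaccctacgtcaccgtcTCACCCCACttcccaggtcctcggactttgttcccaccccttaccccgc

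The second comparison set WT against *Unc93b1* 3d/3d TAMs without αMARCO, and so shares the WT control libraries with the first. Several sterol genes were higher in WT, while a pair of desaturases and an elongase were lower. Of the 36 genes 4 (11.1%) were called higher in WT, against 6.58% of all 15600 genes tested, and 3 (8.33%) lower, against 6.40%. By the adjusted *P* alone 9 of 36 were higher, against 10.2% of all genes. The median log2 fold change was 0.22 over the 36 genes and 0.32 over the 18 sterol enzymes, beside a median of 0 over all genes. In 20 of the 36 genes both WT libraries lay above both *Unc93b1* 3d/3d libraries, against 33.2% of all genes.

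*Insig1* had the smallest adjusted *P* of the list. It was at 93.7 and 76.6 CPM in WT control and 49.97 and 50.17 CPM in *Unc93b1* 3d/3d control, 1.68-fold higher in WT (log2 fold change 0.75, SE 0.11, adjusted *P* = 0.00296). *Idi1* was at 20.7 and 17.2 against 11.05 and 11.26 CPM (log2 fold change 0.75, SE 0.16, adjusted *P* = 0.0143). *Pmvk* was at 51.9 and 41.0 against 28.6 and 29.0 CPM (log2 fold change 0.67, SE 0.13, adjusted *P* = 0.00932). These 3 genes and *Sqle* were the called sterol genes, and none overlapped between the genotypes. *Sqle* was at 35.5 and 40.2 against 25.1 and 24.7 CPM (log2 fold change 0.59, SE 0.12, adjusted *P* = 0.0108). *Cyp51* (0.50), *Msmo1* (0.37), *Srebf2* (0.42) and *Stard4* (0.49) passed the adjusted *P* but not the fold threshold, *Cyp51* being just under it. *Srebf2* stood at 206 and 188 CPM in WT control and 150 and 143 CPM in *Unc93b1* 3d/3d control (SE 0.10, adjusted *P* = 0.0182). *Srebf1*, at 110 and 107 against 110 and 117 CPM, *Scap*, at 42.1 and 49.6 against 39.3 and 43.6 CPM, and *Insig2*, at 27.3 and 26.3 against 26.9 and 27.9 CPM, overlapped between the genotypes, with adjusted *P* from 0.494 to 0.818.

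The 3 genes called lower in WT all modify finished fatty acids. *Scd1*, which makes monounsaturated fatty acids, was at 12.2 and 8.31 CPM in WT control and 20.8 and 20.0 CPM in *Unc93b1* 3d/3d control, 2.01-fold lower in WT (log2 fold change −1.01, SE 0.20, adjusted *P* = 0.00861). *Fads1*, the desaturase of the arachidonic acid route, was at 47.2 and 46.1 against 68.1 and 76.2 CPM (log2 fold change −0.65, SE 0.10, adjusted *P* = 0.00322). *Elovl6*, an elongase of saturated and monounsaturated chains, was at 13.3 and 13.2 against 19.6 and 18.8 CPM (log2 fold change −0.55, SE 0.15, adjusted *P* = 0.0303). Other genes of elongation and desaturation had either sign. *Scd2* was at 139 and 133 CPM in WT against 154 and 162 CPM in *Unc93b1* 3d/3d (log2 fold change −0.24, SE 0.09, adjusted *P* = 0.103). *Elovl5* passed the adjusted *P* in the opposite direction (0.44, SE 0.10, adjusted *P* = 0.0187), and *Fads2* was at 5.32 and 3.94 against 3.64 and 4.01 CPM (log2 fold change 0.26, adjusted *P* = 0.574). None of the 5 genes of acetyl-CoA, NADPH and fatty acid synthesis was called. *Me1*, which yields NADPH, had a log2 fold change of −0.60 (SE 0.33, adjusted *P* = 0.236).

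The WT minus *Unc93b1* 3d/3d difference fell with gene length (rho −0.32 across 12741 coding genes and −0.15 across the 36), and a gene length offset gave 7 genes, with *Stard4* in place of *Elovl6*. *Elovl6* lost its call whichever library was left out. The 8-library model called 0 of the 36 genes and 364 of all genes here, while without *Unc93b1* 3d/3d αMARCO replicate 2 it called 8, the same 7 and *Cyp51*. Without WT control replicate 1 the count was 4, *Sqle*, *Insig1*, *Scd1* and *Fads1*.

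**Figure D3:**
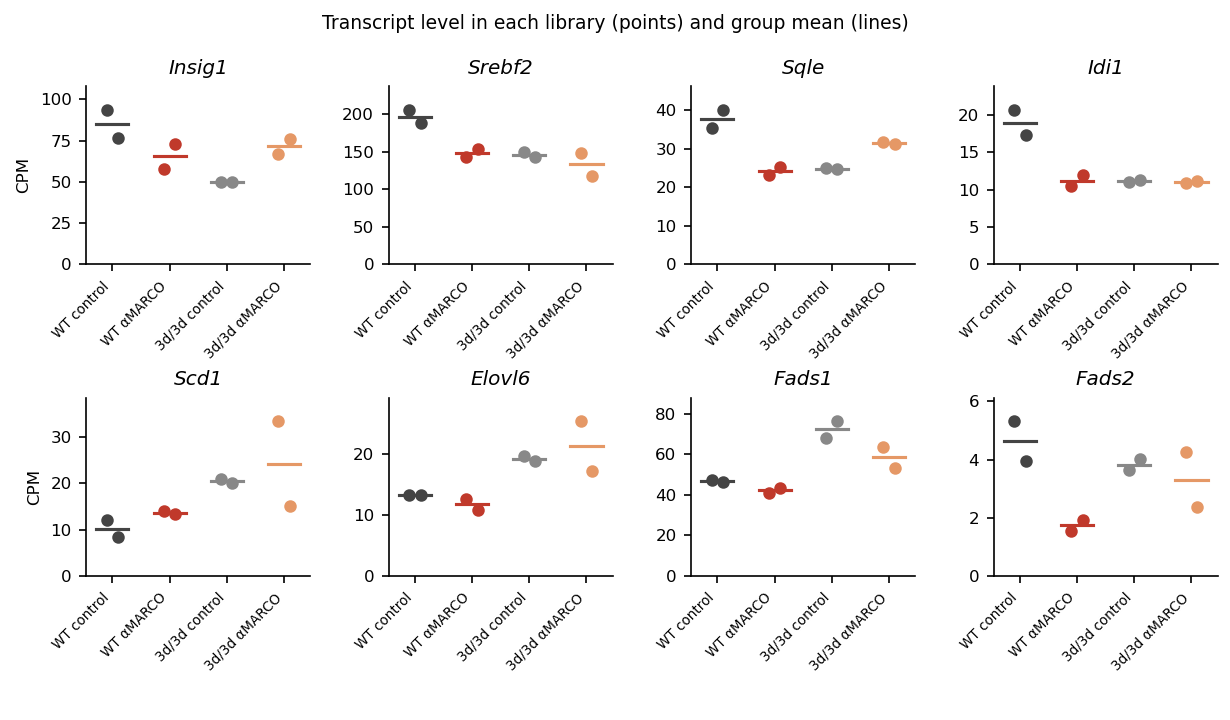
CPM of 8 genes (points, 1 per library; lines, the mean of the 2 libraries of a group) in WT control, WT αMARCO, *Unc93b1* 3d/3d control and *Unc93b1* 3d/3d αMARCO TAMs, with each axis from 0. *Srebf2*, *Sqle* and *Idi1* are highest in the 2 WT control libraries, while *Scd1*, *Elovl6* and *Fads1* are higher in all 4 *Unc93b1* 3d/3d libraries than in all 4 WT libraries.

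Across the 4 groups 2 patterns recurred. In 9 of the 36 genes both WT control libraries lay above the other 6: *Idi1*, *Sqle*, *Lss*, *Dhcr7*, *Insig1*, *Srebf2*, *Stard4*, *Acly* and *Elovl5*. That pattern was found in 11.3% of all 16620 genes. *Idi1* shows it plainly, with 20.7 and 17.2 CPM in WT control and 10.4 to 11.9 CPM in the other 6 libraries. In 4 genes (11.1%), *Scd1*, *Elovl6*, *Fads1* and *Me1*, all 4 *Unc93b1* 3d/3d libraries lay above all 4 WT libraries, against 3.12% of all genes.

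In *Unc93b1* 3d/3d TAMs, none of the 36 genes was called after αMARCO, as was the case for all 15428 genes tested (0% called). At an unadjusted *P* under 0.05 there were 744 genes, and 1 of the 36, *Insig1*, at 49.97 and 50.17 CPM in control and 67.1 and 76.0 CPM after αMARCO (log2 fold change 0.52, SE 0.21, unadjusted *P* = 0.0434, adjusted *P* = 0.823). DESeq2 called 60 genes, none of them in the list. The median log2 fold change was 0.37 over the 18 sterol enzymes and −0.08 over the 12 fatty acid enzymes, beside 0.03 over all genes. Without *Unc93b1* 3d/3d αMARCO replicate 2 these medians were 0.12 and 0.09, and without replicate 1 they were 0.56 and −0.41, so the contrast between the branches rested on replicate 2. In 12 of the 36 genes both αMARCO libraries lay above both controls, against 19.7% of all genes: 9 sterol enzymes and the regulation and transport genes *Insig1*, *Scap* and *Stard4*. *Sqle* was at 25.1 and 24.7 CPM in control and 31.8 and 31.4 CPM after αMARCO (log2 fold change 0.35, SE 0.22, adjusted *P* = 0.823). *Srebf1* was at 110 and 117 CPM against 115 and 139 CPM and *Srebf2* at 150 and 143 against 148 and 118 CPM, with overlapping libraries. *Insig2*, at 26.9 and 27.9 against 23.3 and 30.5 CPM, overlapped too, and *Scap* was at 39.3 and 43.6 against 46.1 and 45.4 CPM.

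The replicates of this group differed for many of the 36 genes. *Unc93b1* 3d/3d αMARCO replicate 2 was the highest of the 8 libraries in 12 of the 36 genes, against 27.2% of all genes, and the lowest in 7, against 28.8%. *Pmvk*, among the shortest of the list, was at 26.3 CPM in replicate 1 and 53.2 CPM in replicate 2, and *Ebp* at 30.2 and 58.1 CPM. *Fasn* and *Acaca*, among the longest, went the other way, from 85.7 to 33.3 CPM and from 28.03 to 14.3 CPM. Over the 36 genes the difference between the replicates had a Spearman rho of −0.39 with gene length, across genes that are not independent. The other replicate pairs had rho values of similar size over the 36 genes. These were −0.39 for WT αMARCO, −0.31 for *Unc93b1* 3d/3d control and 0.56 for WT control. Only the trend across all coding genes set this pair apart by length. *Fads2* was lower in replicate 2, at 2.38 against 4.24 CPM. It is the shortest of the 36 by the deposited gene length (1508 bases), but has 3295 exon bases in GENCODE M21. *Scd1* was at 15.03 against 33.4 CPM. Without replicate 2, *Scd1* was called higher after αMARCO in *Unc93b1* 3d/3d TAMs (log2 fold change 0.71, adjusted *P* = 0.0479), with the remaining sample assumed to vary like the others. Without replicate 1, 12 genes of the list and 5387 of all genes were called.

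**Figure D4:**
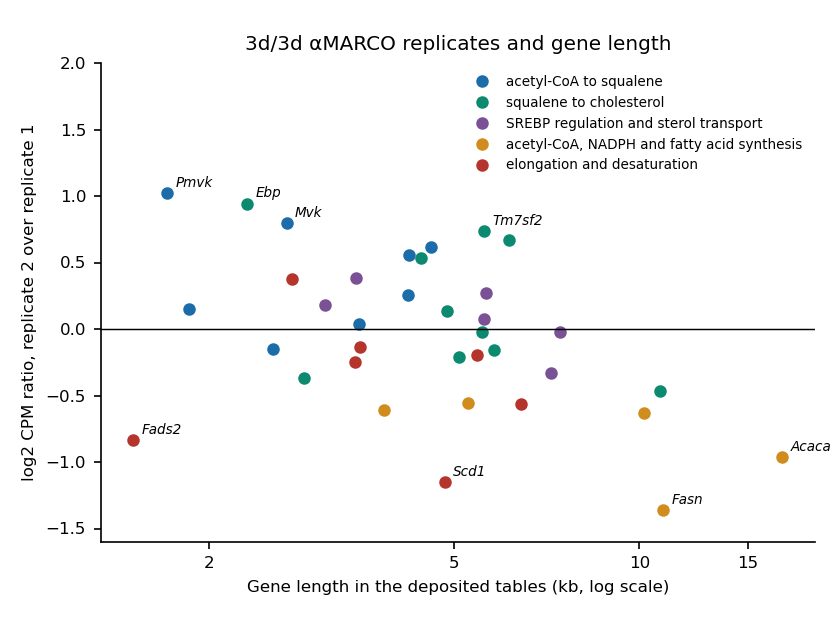
log2 ratio of CPM in *Unc93b1* 3d/3d αMARCO replicate 2 over replicate 1 (vertical axis) against gene length in kb (horizontal log axis) for the 36 genes, coloured by role. Short genes such as *Pmvk* and *Ebp* lie above 0 and the long genes *Fasn* and *Acaca* below it, with *Fads2* below 0 at its deposited length.

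The αMARCO effect was then compared between the genotypes. In 9 of the 36 genes both αMARCO libraries lay below both controls in WT and above both controls in *Unc93b1* 3d/3d TAMs, a pattern seen in 4.75% of all genes: *Fdft1*, *Sqle*, *Cyp51*, *Tm7sf2*, *Msmo1*, *Sc5d*, *Insig1*, *Scap* and *Stard4*. All 9 belong to sterol synthesis, regulation or transport, and none to the fatty acid enzymes. By the sign of the fold change alone, 10 of the 18 sterol enzymes and 2 of the 12 fatty acid enzymes moved down in WT but up in *Unc93b1* 3d/3d, against 28.5% of the 14896 genes tested in both. With *Unc93b1* 3d/3d αMARCO replicate 2 left out the counts were 9 of 18 and 5 of 12, against 18.8% of all genes, and without replicate 1 they were 10 of 18 and 1 of 12, against 30.1%. The test of the difference itself called 0 of the 36 genes and 0% of all 16620 genes, with 11 and 2549 at an unadjusted *P* under 0.05. *Sqle* had the smallest *P*, with a difference of −0.98 on the log2 scale (SE 0.21, unadjusted *P* = 0.00151, adjusted *P* = 0.288). DESeq2 called 208 genes and, of the list, *Sqle* (difference −0.95, adjusted *P* = 0.0415). Without *Unc93b1* 3d/3d αMARCO replicate 2, which leaves 1 library in that group, the edgeR difference for *Sqle* was −0.96. For *Insig1* the difference was −0.90 (SE 0.24, adjusted *P* = 0.318) with all libraries and −0.77 without that replicate 2. The median difference was −0.72 over the sterol enzymes and 0.03 over the fatty acid enzymes (−0.20 with a gene length offset), beside −0.04 over all genes. These medians became −0.43 and −0.23 without replicate 2 of *Unc93b1* 3d/3d αMARCO and −0.84 and 0.32 without replicate 1.

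**Figure D5:**
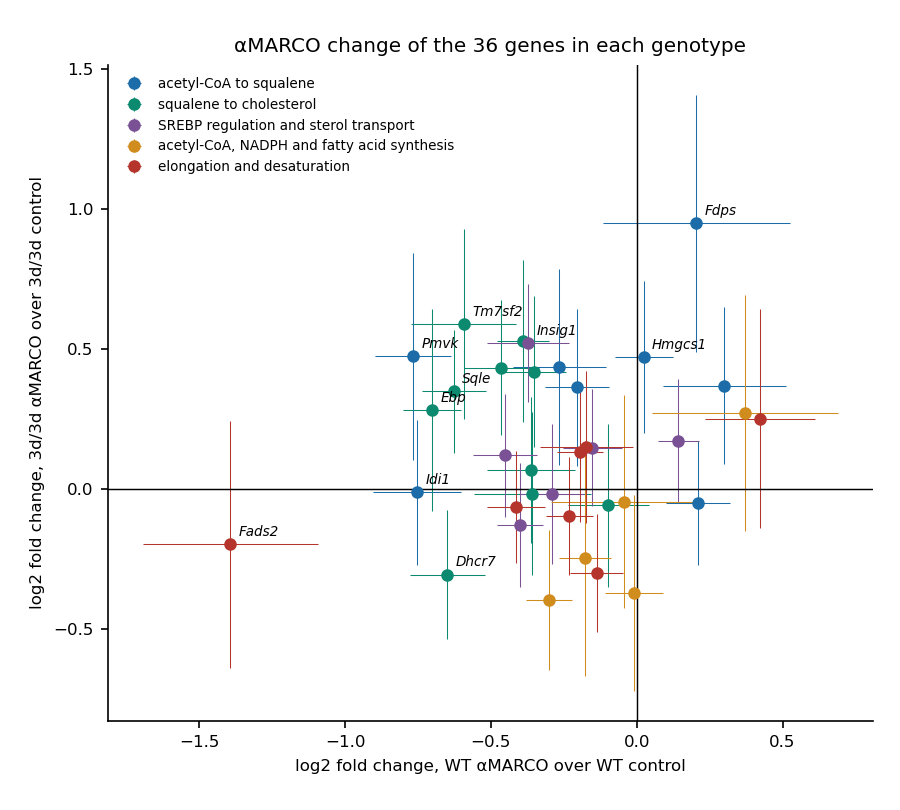
log2 fold change after αMARCO in WT (horizontal axis) and in *Unc93b1* 3d/3d TAMs (vertical axis) for the 36 genes, with bars of 1 SE, coloured by role. The 2 axes share no library. Of the 18 sterol enzymes 10 lie left of 0 and above 0 (9 without *Unc93b1* 3d/3d αMARCO replicate 2), none of them called in *Unc93b1* 3d/3d, and the vertical bars are longer than the horizontal ones.

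The last comparison set WT against *Unc93b1* 3d/3d TAMs after αMARCO. No gene of the 36 and none of the 15722 genes tested was called (0%), with 2 of the list, *Tm7sf2* and *Elovl6*, and 1076 of all genes at an unadjusted *P* under 0.05, and 215 genes called by DESeq2, none of the list. *Elovl6* was at 12.7 and 10.8 CPM in WT and 25.3 and 17.1 CPM in *Unc93b1* 3d/3d (log2 fold change −0.86, SE 0.28, adjusted *P* = 0.693). *Scd1* was at 14.1 and 13.3 against 33.4 and 15.03 CPM (log2 fold change −0.83, SE 0.41, adjusted *P* = 0.709), and *Fads1* at 40.9 and 43.4 against 63.4 and 53.4 CPM (log2 fold change −0.47, SE 0.19, adjusted *P* = 0.709). In all 3 the genotypes did not overlap, as in control TAMs. Both WT libraries lay below both *Unc93b1* 3d/3d libraries in 15 of the 36 genes and in 3495 of the 15722 genes tested. Leaving out *Unc93b1* 3d/3d αMARCO replicate 2 leaves 1 library in that group, so only effect sizes are given. The log2 fold changes were then −1.29 for *Scd1*, −1.12 for *Elovl6*, −0.59 for *Fads1* and −1.28 for *Fads2*. Among the regulators, *Insig1*, *Srebf1* and *Srebf2* overlapped between the genotypes, with log2 fold changes of −0.13, −0.09 and 0.16. *Insig2* and *Scap* lay below *Unc93b1* 3d/3d in both WT libraries, at −0.30 and −0.15, with adjusted *P* of 0.714 and 0.762.

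Genes of the same pathways outside the list, 40 in number, were counted next. After αMARCO in WT, 1 of the 35 tested was called higher and 3 lower, against 8.91% and 11.8% of all genes. *Soat1*, which esterifies cholesterol for storage, rose (log2 fold change 0.55, adjusted *P* = 0.00110). *Tmem97*, a sterol-responsive membrane protein (−0.74, adjusted *P* = 0.00501), *Tecr*, of the elongation cycle (−0.56, adjusted *P* = 0.000955), and *Acsl5*, an acyl-CoA synthetase (−0.71, adjusted *P* = 0.000254), fell. In control TAMs 2 of 34 were higher in WT, *Tecr* (0.54, adjusted *P* = 0.0106) and *Acsl5* (0.88, adjusted *P* = 0.000515), against 6.58% of all genes, and 3 lower, against 6.40%, namely *Soat1* (−0.59, adjusted *P* = 0.00414), *Acsl3* (−0.69, adjusted *P* = 0.0168) and *Lpin1* (−0.82, adjusted *P* = 0.00644). Of 11 genes of cholesterol efflux, LXR targets and neutral lipid synthesis, 3 rose after αMARCO in WT, *Abca1*, the cholesterol exporter (1.20, adjusted *P* = 6.54e-05), *Mylip* (0.80, adjusted *P* = 0.0152) and *Dgat1* (0.55, adjusted *P* = 0.00222), and 0 fell. Between the genotypes in control TAMs, 3 of the 11 were lower and 2 higher in WT, against 6.40% and 6.58% of all genes. *Abca1* (−1.96, adjusted *P* = 9.42e-06), *Apoe* (−1.33, adjusted *P* = 0.000269) and *Dgat2* (−3.83, adjusted *P* = 4.08e-06) were lower in WT, and *Nr1h3*, encoding LXRα (1.82, adjusted *P* = 0.00940), and *Smpdl3a* (0.51, adjusted *P* = 0.0190) were higher. In the other 2 comparisons and in the test of the difference, 0 of these genes were called by edgeR, with 1 to 6 per list at an unadjusted *P* under 0.05.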

How the data were processed

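Bulk TAM RNA-seq of 8 libraries was re-analysed from 3 tables. The authors cleaned reads with fastp, aligned them to GRCm38 with HISAT2 2.0.5 and counted them with featureCounts 1.5.0. The raw counts the authors deposited were the only values tested. The deposited normalized signal, the authors' counts divided by a size factor, and the authors' FPKM values were not used, nor were the authors' DESeq2 1.40.2 fold changes and p-values. Tables were joined by gene identifier: 95230 shared counts differed in 0 cases, and 11598 gene and library pairs absent from a table were set to 0.

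Tests used edgeR 4.0.16 in R 4.3.3 (TMM, filterByExpr, robust quasi-likelihood), on the 4 libraries of a comparison or all 8 for the difference between genotypes, with Benjamini-Hochberg adjustment over all genes tested, as an unpaired design. A call needed an adjusted p no higher than 0.05 and a log2 fold change of 0.5 or more in either direction, as in the study. Levels (CPM) use TMM factors over 8 libraries. With 2 libraries a group, p-values measure the spread between these samples, which may be technical. A fit with 1 library left out has 1 library in a group, whose spread is then taken from the others. Values in every library were given for genes called in any comparison and for the SREBP regulators, with other genes by count and range. Gene names outside this rule were chosen after their values were seen. The 36 genes, their roles and the other lists were chosen with earlier results of these data known. Alternatives were DESeq2 1.42.0, its size factors, 2 other count filters, 1 model of all 8 libraries, a replicate block, 2 other fold thresholds and each library left out. A gene length offset (mgcv 1.9.3), a model of 7 libraries and medians and signs with 1 library left out were chosen after seeing the data. The procedure was tested on simulated data. Copies were sought among GENCODE M21 transcripts at 95% identity over 200 bases.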

Additional observations from a re-analysis of the deposited data

Results flagged for a closer look

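In 9 genes of the list the 2 αMARCO libraries lay below both controls in WT and above both controls in *Unc93b1* 3d/3d TAMs, a pattern shared by 4.75% of all genes. The difference of the αMARCO effect (WT minus *Unc93b1* 3d/3d, log2 scale, edgeR) was tested for each, and none passed. It was −0.98 for *Sqle* (adjusted *P* = 0.288), −1.18 for *Tm7sf2*, −0.91 for *Msmo1*, −0.90 for *Sc5d*, −0.90 for *Insig1*, −0.77 for *Cyp51* and −0.57 for *Stard4* (adjusted *P* = 0.318 for all 6), −0.56 for *Fdft1* (adjusted *P* = 0.352) and −0.30 for *Scap* (adjusted *P* = 0.453). Without *Unc93b1* 3d/3d αMARCO replicate 2, the library whose levels followed gene length, the difference ranged from −0.96 for *Sqle* to −0.23 for *Fdft1*, a sign that the choice of these genes fixes. *Msmo1* then moved from −0.91 to −0.52 and *Tm7sf2* from −1.18 to −0.74. The part of that library in the other values was not tested further. *Fdft1*, *Tm7sf2*, *Scap* and *Cyp51* share exon bases with other genes.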

How the results depend on the processing

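Both the 2 libraries a group and, for *Fdps*, *Fads2* and *Me1*, counts as low as 24 in a library limit the precision. All 7 called genes kept their direction in every alternative for the αMARCO effect in WT, as did the 7 of the control genotype comparison. All values below are numbers of genes called or log2 fold changes, and causes were not tested.

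Replicate numbers did not pair the samples (correlations of replicate deviations from −0.00 to 0.14 over 16620 genes), so a replicate block is only an alternative. The block gave 7 genes of the list after αMARCO in WT, 7 between genotypes in control TAMs and 0 elsewhere. Over all genes, it gave 5 instead of 0 after αMARCO in *Unc93b1* 3d/3d, 97 instead of 0 between genotypes after αMARCO, and 0 for the difference of the effects.

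One model of all 8 libraries gave 164 instead of 3236 genes after αMARCO in WT (0 instead of 7 of the list), 364 instead of 2025 between genotypes in control TAMs (0 instead of 7), 1 instead of 0 after αMARCO in *Unc93b1* 3d/3d and 108 instead of 0 between genotypes after αMARCO. The 7-library model gave 362 and 680 for the last 2, with 0 and 3 of the list. Without the fold threshold, 5487 genes and 14 of the list were called after αMARCO in WT, and 12 of the list between genotypes in control TAMs. At a log2 fold change of 1 the counts were 1366 and 951, with 1 gene of the list each, *Fads2* and *Scd1*. DESeq2 called 60, 215 and 208 genes where edgeR called 0 (*Unc93b1* 3d/3d αMARCO, genotypes after αMARCO, and the difference), and a test without a filter on low counts called 174, 107 and 152.

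Leaving out 1 library at a time gave 1829 to 3751 genes and 3 to 11 of the list after αMARCO in WT, and 1415 to 1720 genes and 4 to 8 of the list between genotypes in control TAMs. It gave 1 to 5387 genes and 0 to 12 of the list after αMARCO in *Unc93b1* 3d/3d, 6 to 6258 genes and 0 to 11 of the list between genotypes after αMARCO, and 0 to 6415 genes for the difference. The highest count in each of the last 3 came without *Unc93b1* 3d/3d αMARCO replicate 1, which leaves the library that stands apart to represent its group. *Tm7sf2* kept its call in 8 of 14 alternatives and *Elovl6* in 6 of 14.

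Signs turned for several genes in comparisons where no gene of the list was called. Without *Unc93b1* 3d/3d αMARCO replicate 2, the change after αMARCO in that genotype went from 0.47 to −0.13 for *Pmvk*. It went from 0.28 to −0.28 for *Ebp* and from −0.25 to 0.28 for *Fasn*. Between genotypes after αMARCO, *Fasn* went from 0.13 to −0.40. Regulators turned too. After αMARCO in *Unc93b1* 3d/3d, *Insig2* (−0.02) ranged from −0.23 to 0.17 and *Srebf2* (−0.13) from −0.29 to 0.02 with 1 library left out, *Srebf2* was 0.0 with a gene length offset, and *Srebf1* (0.17) was 0.0 in the 7-library model. Between genotypes after αMARCO, *Insig1* (−0.13) ranged from −0.31 to 0.03 and *Srebf1* (−0.09) from −0.21 to 0.05, with *Srebf1* at 0.07 in the 7-library model. For the difference, *Srebf1* (−0.03) ranged from −0.16 to 0.14, and was 0.0 by DESeq2 and 0.04 with a filter of 10 counts in every library.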
